A study of Danio rerio with 4 samples.

Results

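Heat shock proteins and chaperones keep other proteins folded, and their genes were followed here across 3 ages of male zebrafish skin. They were taken by name from a table of counts: every gene whose symbol, ignoring case, began with hsp70, hsp90, hspa, hspb, hspd, hspe, hsph, dnaja, dnajb, dnajc or cct plus a digit, with hspbap1 left out. The rule found 96 of 32105 genes, of which 26269 carry a symbol. By class they were 4 HSP90 genes, 15 HSP70 genes, 4 genes of the HSP110 branch (HSPH1, HSPA4L and 2 HSPA4 genes), 1 HSP70 exchange factor (HSPBP1), 6 DNAJA, 14 DNAJB and 32 DNAJC genes, 10 small heat shock protein genes, 8 genes of the chaperonin CCT and 2 of the mitochondrial chaperonin. Many zebrafish genes appear here under a human-style symbol, and for 18 of the 96, whose symbol occurs more than once, the identifier is added.

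RNA came from male skin at 5 months (1 library, strain AB JxTu), 24 months (2 libraries, strain AB JxTu Tg(wt1b:GFP), numbered 1 and 2) and 30 months (1 library, strain AB JxTu). The 24-month fish thus carried a reporter in which wt1b sequence drives green fluorescent protein, so an effect of this strain cannot be told apart from one of that age, whereas 5 and 30 months share a strain. Single fish and pools are not distinguished in the labels, so p-values measure only the spread between these libraries. In comparisons between ages they also rest on the 24-month pair alone, since the other ages have 1 library each, which is assumed to vary like that pair. In edgeR the spread of that pair was shared over genes, so a gene's own spread had no weight. The slope over age takes its spread from all libraries.

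Chaperones work in relays. HSP70 binds exposed hydrophobic stretches of unfolded proteins, J-domain proteins (DNAJA, DNAJB, DNAJC) bring it clients and trigger its ATP cycle, and exchange factors such as HSP110 release the client. HSP90 acts later, on kinases, steroid receptors and muscle myosin. Small heat shock proteins hold unfolding proteins without ATP, and the ring-shaped CCT folds actin and tubulin. Cells keep constitutive forms at all times and raise inducible forms through the factor HSF1 under heat or other stress.

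Total counts lay between 11833498 (24 months replicate 2) and 20441260 (30 months), and 19409 to 24481 genes had at least 1 count. Keratin krt5 stood between 21065 and 49228 CPM (counts per 1e6 counts after TMM scaling, the unit of all levels below unless stated), and a list of 35 keratinocyte genes took a share of all counts of 4.53% at 5 months, 6.64% and 8.16% in the 24-month replicates and 5.91% at 30 months. The libraries also differed in what else they held. A list of 52 skeletal muscle genes took 8.59% at 5 months, 4.25% and 1.97% in the 24-month replicates and 5.27% at 30 months, and 38 germ cell and testis genes took 0.212% at 5 months, 0.187% and 0.0210% in the 24-month replicates and 0.0110% at 30 months. Replicate 2 of 24 months stood apart: it had the fewest counts, 19409 genes detected against 23155 or more in the others, and a TMM factor of 0.817 against 0.932 to 1.15. In bulk tissue fewer cells of a type and less RNA per cell cannot be told apart.

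Chaperone genes together took a share of all counts of 1.13% at 5 months, 1.39% and 1.53% in the 24-month replicates and 1.08% at 30 months. Expression was concentrated in a pair of genes. Per length of transcript, HSPA8 (ENSDARG00000068992), a gene of the constitutive cytosolic HSP70, averaged 1637 RPKM (counts per kilobase of gene model and library size) over the 4 libraries. HSP90AB1, the constitutive cytosolic HSP90, averaged 1170.1 RPKM. These genes made up 87.4% of the HSP70 class and 91.0% of the HSP90 class in RPKM, and every other chaperone gene averaged 218 RPKM or less. The next in order were CCT subunits, at 218 RPKM for CCT2 (ENSDARG00000104674) and 200.4 RPKM for CCT6B.

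Of the 96 genes, 93 passed the filter on low counts (DNAJC22, hspa12a.2 and hspb15 did not) and 71 averaged at least 5 CPM. DNAJB13 was the 1 gene that passed the edgeR quasi-likelihood test in any comparison. Between 24 and 5 months 0 of 93 genes passed at an adjusted p under 0.05, where 0.125% of all 21535 genes tested passed. DESeq2 and limma-voom also gave 0, and 1 gene (hsp90aa1.1) had an unadjusted p under 0.05 in edgeR, or 1.08% against a background of 2.03%. Between 30 and 24 months 1 passed, which was lower at 30 months, against 0.683% of all genes in both directions and 0.553% lower, and 7 had an unadjusted p under 0.05, or 7.53% against 4.76%. Between 30 and 5 months 1 passed, again lower, against 0.961% in both directions and 0.924% lower, and 1 had an unadjusted p under 0.05, against 4.27%. A slope over age gave 0 calls among the 93 genes in edgeR, DESeq2 and limma-voom (0.0% of all genes in edgeR), and 0 of the 93 had an unadjusted p under 0.05, against 1.56%. Leaving out 1 library at a time gave at most 1 slope call, HSPB7 without 5 months (edgeR adjusted p = 0.0263) and DNAJB13 without 24 months replicate 1 (edgeR adjusted p = 0.000827). Without 5 months only 24 and 30 months remain, so the HSPB7 slope is their difference on another scale and not a separate result. Strain differs between those ages as well. The DNAJB13 slope leaves out the 24-month library with 568 counts, the highest of the 4. It keeps 442, 0 and 2 counts at 5, 24 and 30 months, 1 library per age. For a well expressed gene such as HSPA9 the standard error of a log2 difference was 0.91 between 24 and 5 months.

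Between single libraries, the share of chaperone genes that lay 2-fold apart was above that of all genes in some pairs and below it in others, and the shares were not tested against each other. Taking the 71 genes above a mean of 5 CPM, 15 differed 2-fold or more between 30 and 5 months, or 21.1% against 27.0% of all 13182 genes at that level. Between 24 months replicate 1 and 5 months 5 did, or 7.04% against 16.7%. Between 24 months replicate 2 and 5 months 31 did, or 43.7% against 43.1%. Between 30 months and replicate 1 there were 17, or 23.9% against 26.8%, and between 30 months and replicate 2 there were 32, or 45.1% against 42.7%. The replicates of 24 months themselves lay at least 2-fold apart at 22 genes, or 31.0% against 40.5%. With a floor of 1 CPM, which takes in 89 genes, these counts were 23 for 30 against 5 months (background 32.7%), 26 for 30 months against replicate 1 (32.9%), 11 for replicate 1 against 5 months (22.3%) and 34 between the replicates (47.7%). The range over the 4 libraries stayed under 2-fold for 24 of the 71 genes, or 33.8% against 29.1%, and reached 4-fold for 20, or 28.2% against 26.0%. For 33 genes, or 46.5% against 39.6%, the difference of 30 and 5 months was larger than that within the 24-month pair. Few genes followed age in order. DNAJC1, a J protein of the endoplasmic reticulum membrane, and dnajc4 had levels that increased in the order of the ages in all 4 libraries, 2.82% of the 71 against 5.67% of all genes. DNAJC10, dnajc14 and HSP90B1 had levels that decreased in that order, 4.23% against 6.77%.

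**Figure D1:**
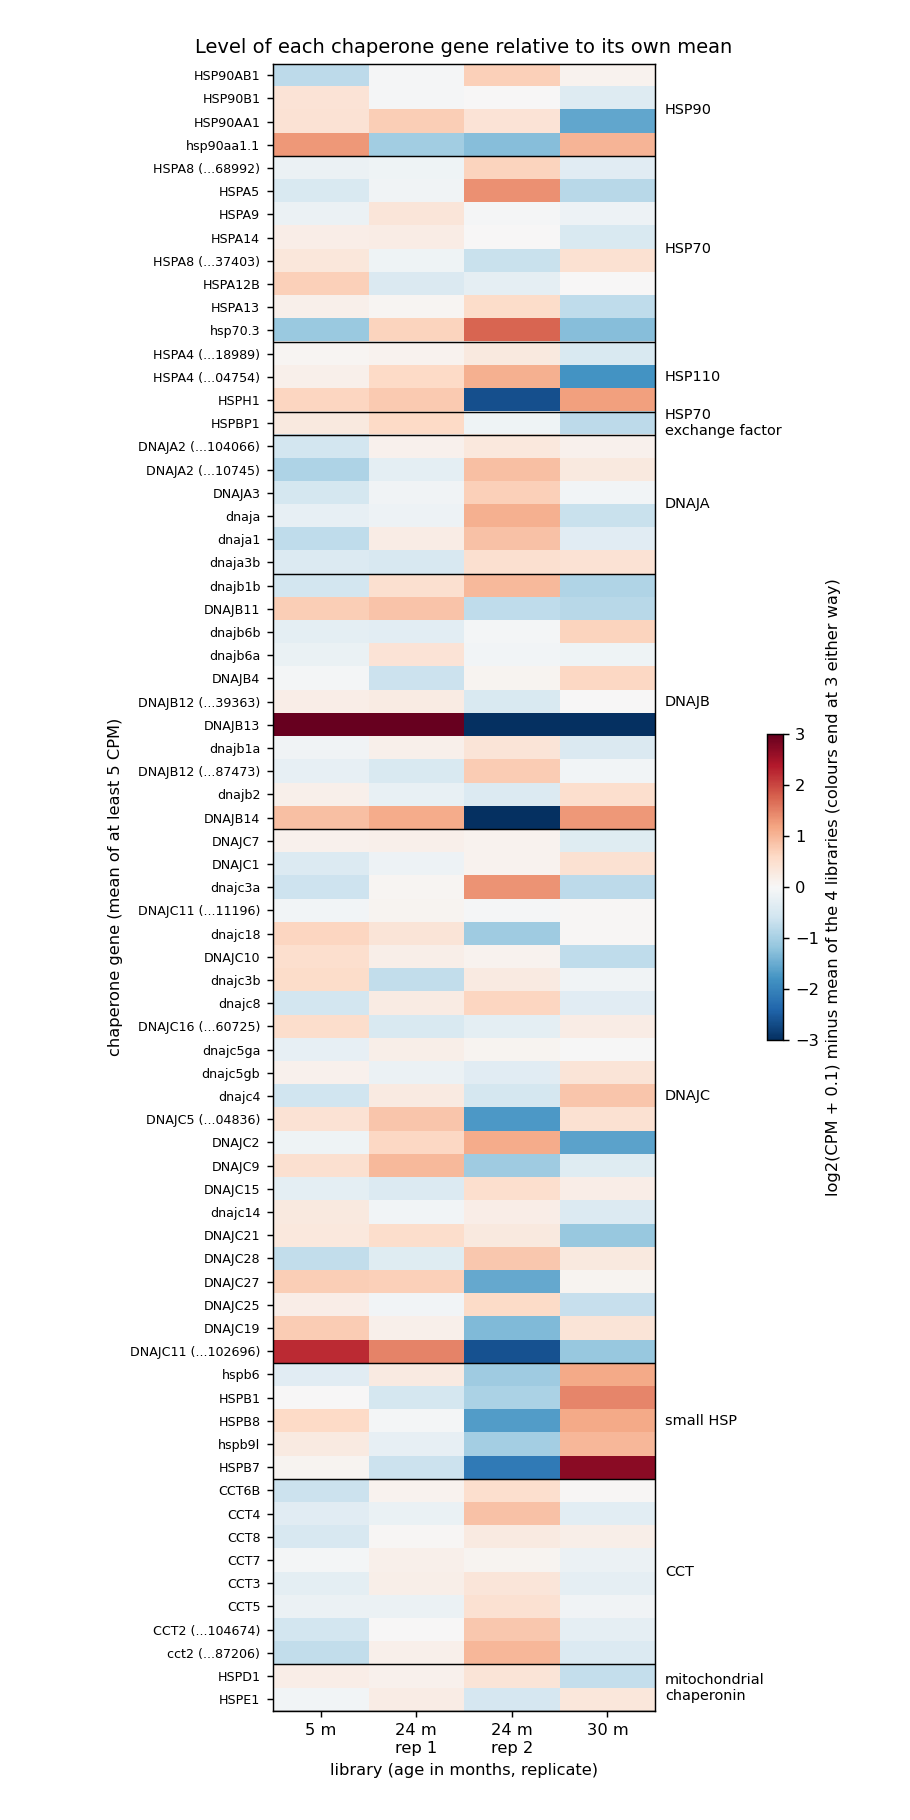
Level of the 71 chaperone genes that averaged 5 CPM or more, in the 4 libraries (columns, by age in months), as log2(CPM + 0.1) minus the gene's mean over the libraries, grouped by class. The 5 small heat shock genes are bluest in 24 months replicate 2 and reddest at 30 months, the CCT genes have the smallest median range of any class, 0.94 in log2, and DNAJB13 is at the end of the colour scale in every library.

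Among the HSP90 genes, HSP90AB1 had 2263 CPM at 5 months, 3805 and 6329.7 CPM in the 24-month replicates and 4138 CPM at 30 months. It was higher in both 24-month libraries and at 30 months than at 5 months, by 0.75, 1.48 and 0.87 on the log2 scale, and none of this passed the test (24 against 5 months, log2 difference 1.16, SE 1.76, edgeR adjusted p = 1). With its weight the HSP90 class took a share of all counts of 0.313% at 5 months, 0.474% and 0.542% in the 24-month replicates and 0.411% at 30 months. HSP90B1, the HSP90 of the endoplasmic reticulum, had 272 CPM at 5 months, 201 and 207 CPM in the 24-month replicates and 158 CPM at 30 months, lowest at 30 months.

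The inducible form HSP90AA1 was steady over the first 3 libraries and low in the oldest. It had 79.5 CPM at 5 months, 98.1 and 78.1 CPM in the 24-month replicates and 20.2 CPM at 30 months. The 30-month level lay below both 24-month libraries, by 2.28 against replicate 1 and 1.95 against replicate 2 in log2, and the comparison of 30 with 24 months did not pass (30 against 24 months, log2 difference −2.13, SE 0.96, edgeR adjusted p = 0.78). A second gene of this type went another way. In zebrafish, hsp90aa1.1 is the form of skeletal muscle, where it folds myosin together with Unc45b and Smyd1b, and it had 121 CPM at 5 months, 23.5 and 20.2 CPM in the 24-month replicates and 98.9 CPM at 30 months. Both 24-month libraries lay below the 5-month and 30-month libraries (24 against 5 months, log2 difference −2.47, SE 0.83, edgeR adjusted p = 0.839, unadjusted p = 0.0031; 30 against 24 months, log2 difference 2.18, SE 0.83, edgeR adjusted p = 0.424). It was the 1 gene of 71 at least 2-fold lower than 5 months in both 24-month libraries, 1.41% against 4.42% of all genes.

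The muscle list stood at its 2 lowest shares in the same 24-month libraries. Per 1000 reads of that list, hsp90aa1.1 had 1.61 reads at 5 months, 0.636 and 0.839 reads in the 24-month replicates and 1.75 reads at 30 months, so both 24-month libraries were also below the others relative to muscle transcripts. Its partner UNC45B had 32.2 CPM at 5 months, 16.6 and 5.38 CPM in the 24-month replicates and 37.2 CPM at 30 months. SMYD1 (ENSDARG00000091253), a methyltransferase that binds myosin and HSP90, had 39.8 CPM at 5 months, 11.6 and 22.3 CPM in the 24-month replicates and 61.7 CPM at 30 months. Both were higher at 30 months than in either 24-month library (30 against 24 months, log2 difference 1.75, SE 0.99, edgeR adjusted p = 1 for UNC45B). The part of muscle content in these differences was not tested.

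The HSP90 cochaperones gave 0 calls among 22 genes in every comparison. FKBP5, an immunophilin of the steroid receptor complex and itself a glucocorticoid target, had 422 CPM at 5 months, 1104 and 2050.5 CPM in the 24-month replicates and 551 CPM at 30 months. Both 24-month libraries were above the other ages (24 against 5 months, log2 difference 1.90, SE 1.32, edgeR adjusted p = 1). The kinase adaptor CDC37 was high in replicate 2 alone, with 11.9 CPM at 5 months, 17.4 and 42.7 CPM in the 24-month replicates and 11.1 CPM at 30 months. Among those with at least 5 CPM the widest ranges over the libraries belonged to UNC45B, pih1d1 (12.3 CPM at 5 months, 14.3 and 2.07 CPM in the 24-month replicates and 5.77 CPM at 30 months) and PTGES3 (ENSDARG00000037284), the p23 cochaperone (40.8 CPM at 5 months, 63.8 and 11.2 CPM in the 24-month replicates and 36.5 CPM at 30 months). All 3 were lowest in replicate 2. The list's median log2 difference was −0.15 between 30 and 5 months, beside −0.04 for all genes tested.

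**Figure D2:**
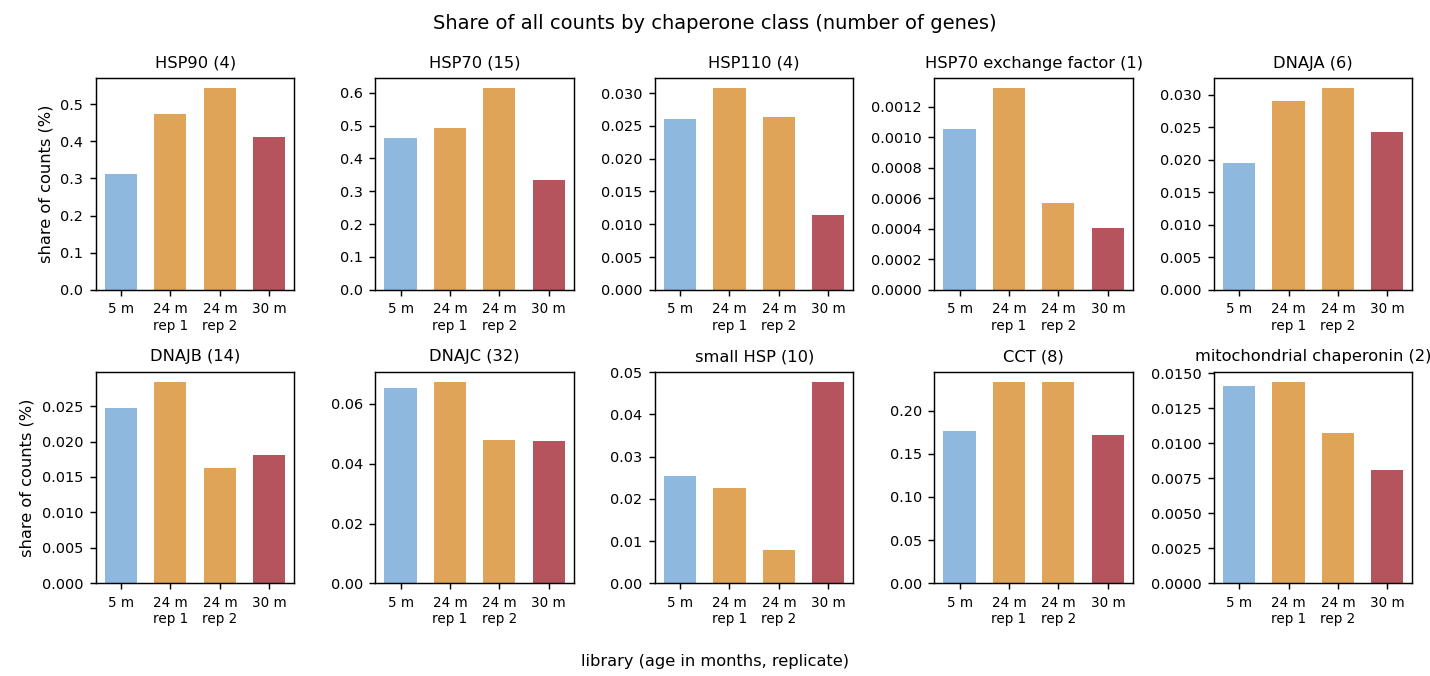
Share of all counts (percent, axes starting at 0, scaled separately) taken by each chaperone class in the 4 libraries, with the number of genes in brackets. The HSP70 share was highest in 24 months replicate 2, at 0.613%, and lowest at 30 months, at 0.335%, while the small heat shock share was lowest in replicate 2, at 0.00778%, and highest at 30 months, at 0.0476%.

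The HSP70 class took a share of all counts of 0.461% at 5 months, 0.492% and 0.613% in the 24-month replicates and 0.335% at 30 months. Its leading gene HSPA8 (ENSDARG00000068992) had 3551 CPM at 5 months, 3685 and 6414 CPM in the 24-month replicates and 3181 CPM at 30 months and was highest in replicate 2 (30 against 24 months, log2 difference −0.67, SE 1.72, edgeR adjusted p = 1). The class holds another HSPA8 gene (ENSDARG00000037403). On library totals it differed from 5 months by −0.48 in log2 in replicate 1 and −0.18 at 30 months. The leading gene differed by 0.06 and −0.45. HSPA9, the mitochondrial HSP70, was among the steadiest chaperone genes, with 154 CPM at 5 months, 227 and 172 CPM in the 24-month replicates and 157 CPM at 30 months. HSPA14, an HSP70 at the ribosome, had 28.02 CPM at 5 months, 28.6 and 24.6 CPM in the 24-month replicates and 17.8 CPM at 30 months. Over the 14 genes tested, 4 were higher and 10 lower at 30 than at 5 months, with a median of −0.28, and 0 passed. HSPA13, a short HSP70 of microsomes, had 11.3 CPM at 5 months, 10.6 and 15.0 CPM in the 24-month replicates and 5.93 CPM at 30 months (30 against 24 months, log2 difference −1.11, SE 1.32, edgeR adjusted p = 1). HSPA12B, an atypical HSP70 of endothelium in mammals, had 17.1 CPM at 5 months, 7.64 and 8.58 CPM in the 24-month replicates and 10.4 CPM at 30 months and was highest at 5 months.

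HSPA5, the HSP70 of the endoplasmic reticulum known as BiP, binds unfolded proteins there and holds the stress sensors in check. It had 232 CPM at 5 months, 296 and 823 CPM in the 24-month replicates and 177 CPM at 30 months. Replicate 2 was above the 3 other libraries, which had 177 to 296 CPM (30 against 24 months, log2 difference −1.66, SE 1.08, edgeR adjusted p = 1). Some genes of the unfolded protein response, chosen after their values were seen, were high in the same library. DDIT3, the factor CHOP, had 32.0 CPM at 5 months, 35.0 and 145 CPM in the 24-month replicates and 38.4 CPM at 30 months (24 against 5 months, log2 difference 1.49, SE 0.93, edgeR adjusted p = 1). Its target TRIB3 had 29.8 CPM at 5 months, 53.2 and 106 CPM in the 24-month replicates and 41.2 CPM at 30 months. The co-chaperone dnajc3a, a J protein of the reticulum that helps BiP, had 23.4 CPM at 5 months, 37.6 and 92.7 CPM in the 24-month replicates and 20.7 CPM at 30 months. In each of these 4 genes replicate 2 was the highest library, as it was for 42.3% of the 71 chaperone genes and 39.1% of all genes with at least 5 CPM. XBP1 had 208 CPM at 5 months, 153 and 396 CPM in the 24-month replicates and 117 CPM at 30 months. ppp1r15a, which restarts translation after stress, had 17.7 CPM at 5 months, 35.0 and 74.7 CPM in the 24-month replicates and 40.2 CPM at 30 months (24 against 5 months, log2 difference 1.63, SE 0.97, edgeR adjusted p = 1). Other genes known to respond were lower in replicate 2 than at 5 months. HSP90B1 had 207 CPM in replicate 2 and 272 CPM at 5 months, and DNAJB11 had 16.1 CPM in replicate 2 and 45.6 CPM at 5 months. Of 12 regulators of the heat shock and unfolded protein responses with at least 5 CPM, 5 were higher and 3 lower by 2-fold or more in replicate 2 than at 5 months. Of 25 other folding factors of the reticulum at that level, 2 were higher and 9 lower by that measure.

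The classic heat-inducible HSP70 genes had at most 13.55 CPM in any library. hsp70.3 had 1.78 CPM at 5 months, 6.38 and 13.55 CPM in the 24-month replicates and 1.57 CPM at 30 months, and both 24-month libraries were above the other ages (30 against 24 months, log2 difference −2.65, SE 1.76, edgeR adjusted p = 1; 24 against 5 months, log2 difference 2.48, SE 1.74, edgeR adjusted p = 1). hsp70l, which heat raises strongly in zebrafish embryos, had 7 counts at 5 months, 122 and 40 counts in the 24-month replicates and 84 counts at 30 months. This gives 0.336 CPM at 5 months, 5.30 and 4.14 CPM in the 24-month replicates and 4.41 CPM at 30 months. hsp70.1 had 1.78 CPM at 5 months, 1.09 and 6.93 CPM in the 24-month replicates and 0.945 CPM at 30 months and was high in replicate 2 alone, whereas hspa1b had 3.65 CPM at 5 months, 1.87 and 0.103 CPM in the 24-month replicates and 9.87 CPM at 30 months and had its lowest level, 1 count, in replicate 2. The 4 genes thus had different orders over the libraries, and their transcripts are close in sequence, so reads could have been split among them or lost in counting. HSPA2 had 1.44 CPM at 5 months, 4.21 and 5.38 CPM in the 24-month replicates and 0.997 CPM at 30 months, an order like that of hsp70.3.

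The J protein partner of inducible HSP70, dnajb1b, had 19.8 CPM at 5 months, 40.0 and 57.1 CPM in the 24-month replicates and 15.4 CPM at 30 months. It and hsp70.3 were the 2 genes of 71 at least 2-fold higher than 5 months in both 24-month libraries, 2.82% against 3.72% of all genes, and both were also at least 2-fold lower at 30 months than in both 24-month libraries (dnajb1b, 30 against 24 months, log2 difference −1.66, SE 1.01, edgeR adjusted p = 1). Its paralogue dnajb1a had 9.88 CPM at 5 months, 11.9 and 13.9 CPM in the 24-month replicates and 7.82 CPM at 30 months, in the same order with a smaller range. The factor itself, hsf1, had 23.9 CPM at 5 months, 20.41 and 54.6 CPM in the 24-month replicates and 20.1 CPM at 30 months, high in replicate 2. A list of 40 immediate early genes, a class known for rapid induction by stimuli and by handling of tissue, took 0.315% at 5 months, 0.309% and 0.802% in the 24-month replicates and 0.544% at 30 months, and was also highest in replicate 2. The part of handling in these levels was not tested.

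**Figure D3:**
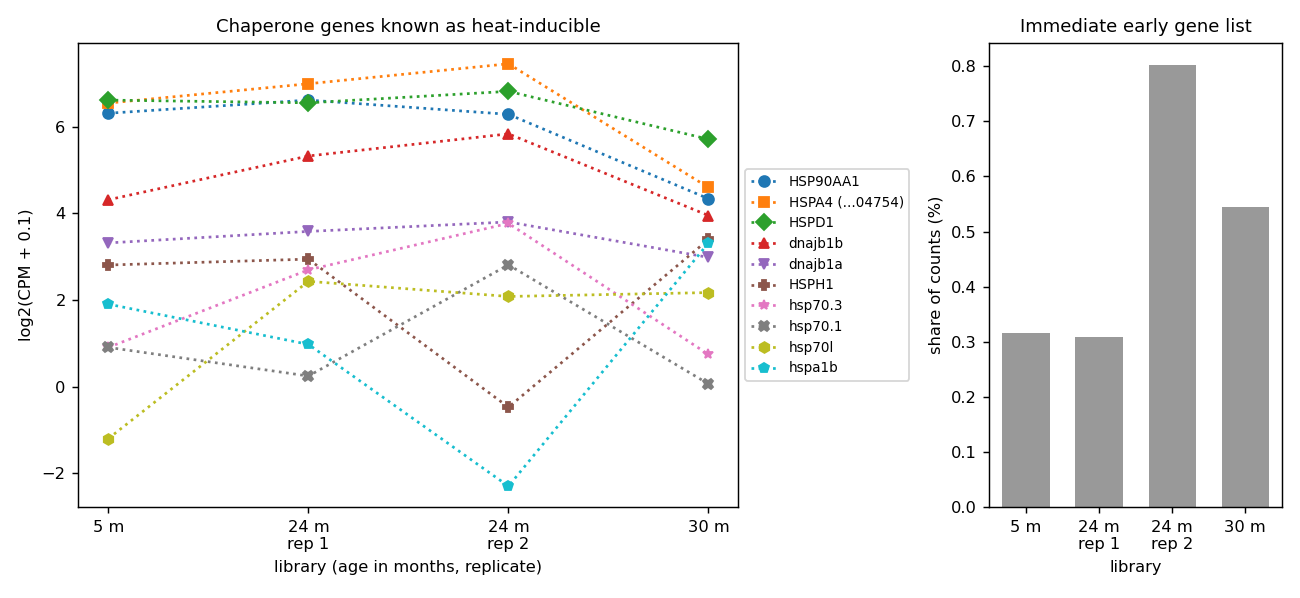
Levels of 10 chaperone genes, most of them known as heat-inducible, as log2(CPM + 0.1), in the 4 libraries by age, with the share of counts (percent) of a list of 40 immediate early genes on the right. 7 of the 10 genes were lowest at 30 months, hspa1b and HSPH1 had their lowest point in 24 months replicate 2, and hsp70l was lowest at 5 months. For hsp70.3 and hsp70.1 the margin was small. Of the 71 chaperone genes with at least 5 CPM 32.4% were lowest at 30 months, and of all genes at that level 23.9%. The 10 genes are a selection, and HSPB1 and HSPE1, which are not shown, were highest at 30 months. HSPA4 (ENSDARG00000004754), among the 7, is drawn here although HSPH1 is the inducible member of its branch.

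In the HSP110 branch, whose proteins reload HSP70 and help to dissolve aggregates, HSPA4 (ENSDARG00000004754) had 93.5 CPM at 5 months, 127 and 175 CPM in the 24-month replicates and 24.1 CPM at 30 months. The 30-month library was below the 3 others, by 1.95 against 5 months and by 2.39 and 2.86 against the 24-month replicates in log2. With 24 months the difference had an unadjusted p of 0.00755 and did not pass (30 against 24 months, log2 difference −2.65, SE 0.99, edgeR adjusted p = 0.387). Its paralogue HSPA4 (ENSDARG00000018989) was more even, with 124 CPM at 5 months, 129 and 147 CPM in the 24-month replicates and 87.1 CPM at 30 months (30 against 24 months, log2 difference −0.66, SE 0.90, edgeR adjusted p = 1). HSPH1, the inducible member, had 6.91 CPM at 5 months, 7.60 and 0.621 CPM in the 24-month replicates and 10.4 CPM at 30 months and was low in replicate 2 alone (30 against 24 months, log2 difference 1.33, SE 1.42, edgeR adjusted p = 1). The exchange factor HSPBP1 had 9.21 CPM at 5 months, 11.5 and 6.93 CPM in the 24-month replicates and 4.36 CPM at 30 months (30 against 24 months, log2 difference −1.08, SE 1.45, edgeR adjusted p = 1).

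At least 2-fold lower at 30 months than in both 24-month libraries were 6 genes, 8.45% of 71 against 5.01% of all genes at that level. They were HSPA4 (ENSDARG00000004754), HSP90AA1, dnajb1b, hsp70.3, DNAJC2 and DNAJC21. Most of them serve cytosolic HSP70 and HSP90, and DNAJC2 and DNAJC21 act at the ribosome and in its making. DNAJC2, which sits at the exit of the ribosome and works with HSPA14, had 9.02 CPM at 5 months, 15.3 and 21.5 CPM in the 24-month replicates and 3.15 CPM at 30 months (30 against 24 months, log2 difference −2.54, SE 1.39, edgeR adjusted p = 1). Against replicate 1 alone 11 genes were at least 2-fold lower at 30 months, or 15.5% against 13.1%, and against replicate 2 alone 17 were, or 23.9% against 21.0%. None of the 6 passed the test.

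Other HSP70 partners gave 0 calls among 17 genes. STUB1, the ubiquitin ligase CHIP that sends HSP70 clients to the proteasome, had 38.4 CPM at 5 months, 36.9 and 99.3 CPM in the 24-month replicates and 30.2 CPM at 30 months, high in replicate 2 alone (30 against 24 months, log2 difference −1.17, SE 0.92, edgeR adjusted p = 1). HYOU1, the exchange factor of BiP, had 82.4 CPM at 5 months, 70.7 and 57.0 CPM in the 24-month replicates and 25.6 CPM at 30 months, lower at each later age (30 against 5 months, log2 difference −1.69, SE 1.03, edgeR adjusted p = 1). BAG3, which joins HSPB8 to HSP70 in the disposal of damaged filaments, had 27.0 CPM at 5 months, 25.7 and 12.1 CPM in the 24-month replicates and 33.5 CPM at 30 months.

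The 6 DNAJA genes, the general J proteins of cytosol and mitochondrion, were all higher at 24 than at 5 months, with a median log2 difference of 0.87 beside −0.06 for all genes, and 0 passed. This count was 6 of 6 under each of 3 scalings (TMM, library totals alone and DESeq2 size factors). The class took 0.0195% at 5 months, 0.0290% and 0.0310% in the 24-month replicates and 0.0243% at 30 months. Its leading gene, with 53.9% of the class in RPKM, was DNAJA2 (ENSDARG00000104066), which had 93.6 CPM at 5 months, 149 and 169.5 CPM in the 24-month replicates and 149 CPM at 30 months (24 against 5 months, log2 difference 0.77, SE 0.91, edgeR adjusted p = 1). DNAJA2 (ENSDARG00000010745) had the widest range, with 17.7 CPM at 5 months, 27.3 and 63.1 CPM in the 24-month replicates and 41.4 CPM at 30 months (24 against 5 months, log2 difference 1.35, SE 0.97, edgeR adjusted p = 1). Under TMM replicate 2 was the highest library for all 6 genes, as it was for 39.1% of all genes with at least 5 CPM. Among the 6 were dnaja1 (9.84 CPM at 5 months, 19.4 and 30.9 CPM in the 24-month replicates and 13.3 CPM at 30 months; 24 against 5 months, log2 difference 1.35, SE 1.16, edgeR adjusted p = 1) and dnaja (20.6 CPM at 5 months, 22.2 and 52.0 CPM in the 24-month replicates and 15.4 CPM at 30 months; 30 against 24 months, log2 difference −1.27, SE 1.04, edgeR adjusted p = 1). On library totals alone DNAJA2 (ENSDARG00000104066) was higher in replicate 1 (3425 of 20070292 counts) than in replicate 2 (1639 of 11833498 counts), and dnaja3b was highest at 30 months. In replicate 1 alone the median of the 6 genes against 5 months was 0.52, beside −0.08 for all genes. Keratinocyte genes stood higher at 24 than at 5 months as well, at 25 of 35 genes with a median of 0.77 and 0 calls. Of 27 macrophage and myeloid genes tested 22 were higher, with a median of 1.61 and 1 call, and the list took 0.169% at 5 months, 0.498% and 0.515% in the 24-month replicates and 0.290% at 30 months. Against 5 months its median was 1.52 in replicate 1 and 0.47 in replicate 2, whereas that of the keratinocyte genes was 0.33 in replicate 1 and 1.05 in replicate 2. The part of these cell types in the DNAJA levels was not tested.

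DNAJB13 was the gene that passed the test. It is a J protein of the sperm tail in mammals, part of the radial spokes of the flagellum, and it had 21.2 CPM at 5 months, 24.7 and 0 CPM in the 24-month replicates and 0.105 CPM at 30 months. These are 442 counts at 5 months, 568 and 0 counts in the 24-month replicates and 2 counts at 30 months. It was thus at a like level in the 5-month library and replicate 1 and near or at 0 in the others, and the 24-month pair spans the whole range. The test gave this gene's own spread in the pair no weight, since it used a spread shared over genes. DNAJB13 was called lower at 30 months against 5 months (30 against 5 months, log2 difference −7.57, SE 1.97, edgeR adjusted p = 0.0174, n = 1 and 1) and against 24 months (30 against 24 months, log2 difference −6.79, SE 1.86, edgeR adjusted p = 0.0425, n = 1 and 2). In TMM-scaled counts it was 202-fold lower at 30 than at 5 months (95% counting interval 55.6 to 1673) and 165.5-fold lower than in the pooled 24-month libraries (45.6 to 1370). Replicate 2 was at least 79.5-fold lower than replicate 1 and at least 68.4-fold lower than 5 months, taking 3 counts per library as the limit of a count of 0. The difference from 24 months rests on replicate 1: it was −6.85 against that library and 0.97 against replicate 2. Neither call held in DESeq2, limma-voom, edgeR without its legacy dispersion, on library totals alone or with a floor of 5 CPM.

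Germ cell and testis transcripts had the same split over the libraries. Of the 38 genes of that list 21 had 0 counts in replicate 2 and 8 had 0 at 30 months, among them PIWIL1, DAZL, SYCP3 and DMC1 in replicate 2 and insl3, STAR, DND1 and topaz1 at 30 months, and 21 were called lower at 30 than at 5 months. Of all 21535 genes tested 2718 had 0 counts in replicate 2 and 762 at 30 months. DNAJB13 is not on the list. Per 1000 reads of the list it had 11.4 reads at 5 months, 15.1 and 0 reads in the 24-month replicates and 0.893 reads at 30 months. The factor hsf5, which is needed for sperm formation in zebrafish, had 80.4 CPM at 5 months, 51.3 and 0.103 CPM in the 24-month replicates and 0.577 CPM at 30 months and was called lower at 30 months against 24 months (30 against 24 months, log2 difference −5.46, SE 1.29, edgeR adjusted p = 0.00849) and against 5 months (30 against 5 months, log2 difference −7.11, SE 1.43, edgeR adjusted p = 0.000366). Its difference from 24 months also rests on replicate 1, at −6.22 against that library and 1.69 against replicate 2. Both hsf5 calls were lost under the same settings as those of DNAJB13, with adjusted p from 0.678 to 1. It was the 1 called gene among 14 tested regulators of the heat shock and unfolded protein responses. The part of germ cell and testis content in the level of DNAJB13 was not tested.

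Other chaperone genes were likewise higher at 5 months and in replicate 1 than in replicate 2 and at 30 months. Those described here are a selection at low levels in the latter libraries. DNAJB11 and DNAJC9 had the same split at higher levels and with smaller differences. The share of all genes with this split was not counted. HSPA4L, an HSP110 of the testis in mice, had 77 counts at 5 months, 80 and 2 counts in the 24-month replicates and 2 counts at 30 months, or 3.69 CPM at 5 months, 3.47 and 0.207 CPM in the 24-month replicates and 0.105 CPM at 30 months. DNAJC11 (ENSDARG00000102696) had 11.75 CPM at 5 months, 6.99 and 0.310 CPM in the 24-month replicates and 1.05 CPM at 30 months (30 against 5 months, log2 difference −3.48, SE 2.04, edgeR adjusted p = 1), while its paralogue DNAJC11 (ENSDARG00000011196), whose protein shapes mitochondrial cristae, was the steadiest of the 71 genes, with 36.3 CPM at 5 months, 41.0 and 37.5 CPM in the 24-month replicates and 39.5 CPM at 30 months. DNAJC6, the clathrin uncoating J protein auxilin, had 1.63 CPM at 5 months, 2.302 and 0.103 CPM in the 24-month replicates and 0.105 CPM at 30 months. None of these 3 low genes passed the test.

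**Figure D4:**
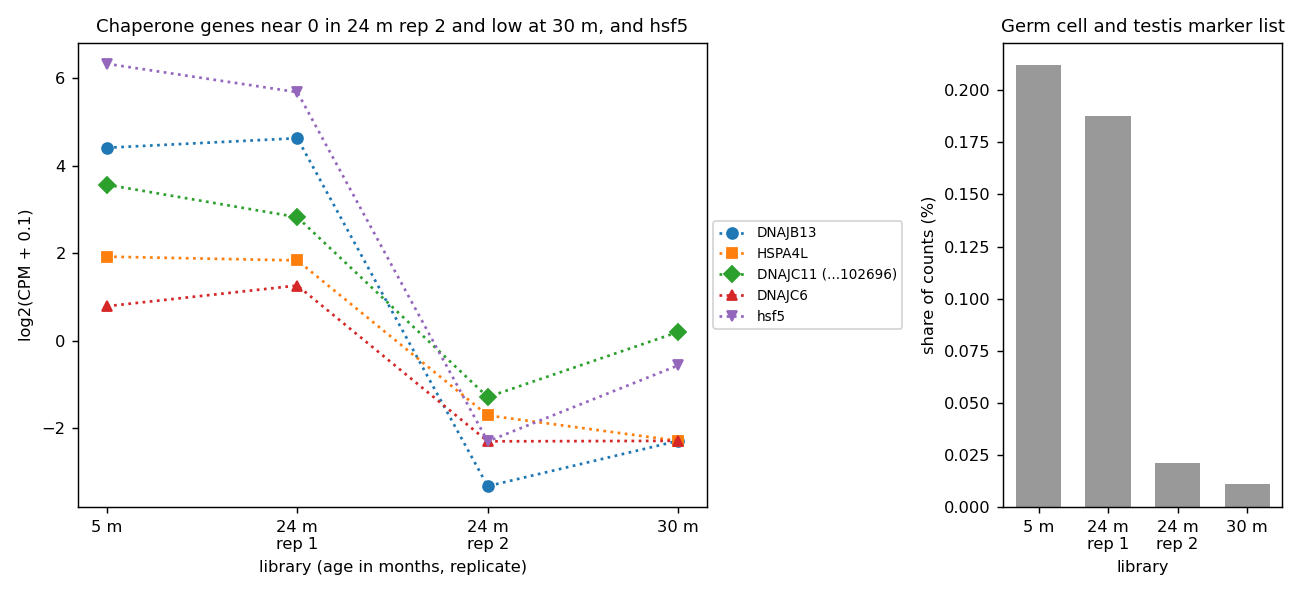
Levels of 4 chaperone genes and of the factor hsf5, as log2(CPM + 0.1), in the 4 libraries by age, with the share of counts (percent) of 38 germ cell and testis genes on the right. The chaperone genes are a selection, and DNAJB11 and DNAJC9, which are not shown, had the same split at higher levels. All 5 genes were detected at 5 months and in 24 months replicate 1 and stood at 0.310 CPM or less in replicate 2 and at 1.05 CPM or less at 30 months, while the list took 0.212% of counts at 5 months, 0.187% and 0.0210% in the 24-month replicates and 0.0110% at 30 months.

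Over the 14 DNAJB genes, DNAJB13, dnajb1a and dnajb1b included, there was no common direction, with 6 of 14 higher at 24 than at 5 months and 7 of 14 higher at 30 than at 5 months. DNAJB14, a J protein of the endoplasmic reticulum membrane, was low in replicate 2 alone, with 7.63 CPM at 5 months, 8.77 and 0.310 CPM in the 24-month replicates and 10.02 CPM at 30 months (30 against 24 months, log2 difference 1.13, SE 1.41, edgeR adjusted p = 1). From 3 counts against 202, replicate 2 was 28.3-fold lower than replicate 1 (95% counting interval 9.54 to 138). dnajb6b, whose mammalian counterpart suppresses aggregation of polyglutamine proteins, had 20.9 CPM at 5 months, 20.5 and 24.7 CPM in the 24-month replicates and 40.9 CPM at 30 months. DNAJB4 had 23.5 CPM at 5 months, 15.5 and 25.5 CPM in the 24-month replicates and 37.3 CPM at 30 months. Both were highest at 30 months, and their differences from 24 months were 0.86 each (SE 0.96 and 0.97, edgeR adjusted p = 1 for both).

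The 32 DNAJC genes, which serve narrow tasks, took 0.0655% at 5 months, 0.0674% and 0.0478% in the 24-month replicates and 0.0476% at 30 months. At 30 months 10 of 31 genes tested were higher and 21 lower than at 5 months, with a median of −0.52 beside −0.04 for all genes, and 0 passed. DNAJC7, a scaffold between HSP70 and HSP90, had 97.9 CPM at 5 months, 100.5 and 96.5 CPM in the 24-month replicates and 69.9 CPM at 30 months (30 against 24 months, log2 difference −0.50, SE 0.87, edgeR adjusted p = 1). DNAJC5 (ENSDARG00000004836), the cysteine string protein of secretory vesicles, had 17.8 CPM at 5 months, 23.8 and 3.93 CPM in the 24-month replicates and 18.3 CPM at 30 months and was low in replicate 2 alone (30 against 24 months, log2 difference 0.39, SE 1.11, edgeR adjusted p = 1, a sign that turns without replicate 2, at −0.38). DNAJC9, which handles histones, had 14.6 CPM at 5 months, 20.6 and 4.96 CPM in the 24-month replicates and 8.13 CPM at 30 months. DNAJC19 and DNAJC15, of the mitochondrial import motor, differed in replicate 2, where DNAJC15 was highest and DNAJC19 lowest. DNAJC19 had 7.87 CPM at 5 months, 5.12 and 1.76 CPM in the 24-month replicates and 6.04 CPM at 30 months. DNAJC15 had 8.54 CPM at 5 months, 7.86 and 15.0 CPM in the 24-month replicates and 12.2 CPM at 30 months.

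Grouped by compartment, a grouping made after the values were seen, 10 of the chaperone genes work inside the endoplasmic reticulum, and 8 of these averaged at least 5 CPM. Of the 8, 7 were lower at 30 than at 5 months and 6 had their lowest level at 30 months. Of the 71 chaperone genes 32.4% did, and of all genes at that level 23.9%, but the late grouping makes these shares no test. DNAJB14 of the reticulum membrane, highest at 30 months, is not in the group, whereas DNAJC1 is. Other J proteins of that membrane are left out too. Of these, DNAJB12 (ENSDARG00000039363) and dnajc18 were lowest in replicate 2, DNAJB12 (ENSDARG00000087473) in replicate 1 and dnajc14 at 30 months. The counts thus depend on where the group ends. The median log2 difference of the 8 genes between 30 and 5 months was −0.72 and kept its direction under 3 scalings (−1.01 on library totals alone). The median of all genes was −0.04 in the main setting and −0.33 on library totals alone. Keeping a negative direction there was thus a weak check. DNAJB11, which loads BiP, had 45.6 CPM at 5 months, 49.7 and 16.1 CPM in the 24-month replicates and 15.4 CPM at 30 months. DNAJC10, a reductase that opens wrong disulfides, had 37.3 CPM at 5 months, 29.7 and 28.3 CPM in the 24-month replicates and 15.4 CPM at 30 months. The exception DNAJC1 had 48.6 CPM at 5 months, 58.4 and 70.33 CPM in the 24-month replicates and 88.7 CPM at 30 months. None of the 8 passed the test in any comparison.

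A list of 28 other folding factors of the reticulum (disulfide isomerases, calreticulins, prolyl isomerases) stood lower as well, with 24 of 28 lower at 30 than at 5 months, a median of −0.65 and 0 calls. On library totals alone 27 of 28 were lower, as were 13590 of all 21535 genes tested. PDIA6, a disulfide isomerase, had 64.6 CPM at 5 months, 75.7 and 76.2 CPM in the 24-month replicates and 23.1 CPM at 30 months. MANF, which is secreted under reticulum stress, had 37.7 CPM at 5 months, 24.9 and 18.5 CPM in the 24-month replicates and 10.8 CPM at 30 months. The isomerase PDIA3 was even, with 276 CPM at 5 months, 276 and 269.8 CPM in the 24-month replicates and 267 CPM at 30 months. Among genes of the list with at least 5 CPM, the widest ranges belonged to SERPINH1 (ENSDARG00000075954), FKBP14 and FKBP10 (ENSDARG00000045129). SERPINH1 (ENSDARG00000075954), a gene of the collagen chaperone HSP47, had 42.2 CPM at 5 months, 14.9 and 3.41 CPM in the 24-month replicates and 30.9 CPM at 30 months (24 against 5 months, log2 difference −2.19, SE 0.99, edgeR adjusted p = 1). FKBP10 (ENSDARG00000045129) had 56.9 CPM at 5 months, 10.03 and 18.5 CPM in the 24-month replicates and 15.7 CPM at 30 months (24 against 5 months, log2 difference −2.00, SE 0.96, edgeR adjusted p = 1). FKBP14 had 10.1 CPM at 5 months, 6.64 and 1.03 CPM in the 24-month replicates and 4.51 CPM at 30 months (24 against 5 months, log2 difference −1.39, SE 1.49, edgeR adjusted p = 1). The list also holds SERPINH1 (ENSDARG00000019949) and FKBP10 (ENSDARG00000099183), which the choice by largest range did not pick. Dermal fibroblast genes took 5.78% at 5 months, 0.869% and 5.83% in the 24-month replicates and 1.17% at 30 months. Of its 22 genes 18 were lower at 30 than at 5 months, with a median of −0.81 and 0 calls. The part of dermal content in the reticulum genes was not tested.

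Small heat shock protein genes stood higher at 30 than at 24 months. All 9 genes tested were higher at 30 than at 24 months, with a median log2 difference of 1.59 beside −0.14 for all genes, with the same count under the 3 scalings (median 1.46 on library totals alone), and 0 passed at the adjusted level. At 24 against 5 months 1 of 9 was higher, with a median of −1.20. These comparisons share the 24-month libraries, and low values there enter both. Against replicate 1 alone the median at 30 months was 1.19, against replicate 2 alone it was 2.18, and against 5 months it was 0.74, with 6 of 9 genes higher. Not every gene stood above both replicates. In CPM, hspb9 and hspb11 were lower at 30 months than in replicate 1, and HSPB3 was lower than in replicate 2. These genes averaged under 5 CPM.

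HSPB7, a small heat shock protein of heart and skeletal muscle, had 8.44 CPM at 5 months, 5.08 and 1.76 CPM in the 24-month replicates and 52.7 CPM at 30 months. The 30-month library stood above the 3 others, by 2.63 against 5 months and by 3.35 and 4.82 against the 24-month replicates in log2. The difference from 24 months just missed the threshold (30 against 24 months, log2 difference 3.93, SE 1.099, edgeR adjusted p = 0.0506), and the adjusted p ranged from 0.0568 to 1 over the alternatives. HSPB1, the ubiquitous HSP27 that caps and guards actin filaments, had 55.2 CPM at 5 months, 37.8 and 28.03 CPM in the 24-month replicates and 150.4 CPM at 30 months (30 against 24 months, log2 difference 2.19, SE 0.83, edgeR adjusted p = 0.41, unadjusted p = 0.00837). HSPB8, the partner of BAG3, had 45.2 CPM at 5 months, 28.7 and 9.20 CPM in the 24-month replicates and 65.7 CPM at 30 months (30 against 24 months, log2 difference 1.79, SE 0.88, edgeR adjusted p = 0.962, unadjusted p = 0.0421). For these 3 genes the 30-month level lay outside the range of the 24-month pair, as it did for 53 of the 71 chaperone genes, or 74.6%, and 63.4% of all genes.

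hspb6, known as HSP20 and found in smooth and striated muscle, had 60.5 CPM at 5 months, 91.7 and 36.7 CPM in the 24-month replicates and 167 CPM at 30 months (30 against 24 months, log2 difference 1.38, SE 0.83, edgeR adjusted p = 1). The gene hspb9l had 38.6 CPM at 5 months, 26.9 and 15.9 CPM in the 24-month replicates and 64.6 CPM at 30 months. All 5 genes with at least 5 CPM had their lowest level in replicate 2 and their highest at 30 months, where 30.0% and 25.4% of all genes at that level did. Of the 71 chaperone genes, 5 were at least 2-fold higher at 30 months than in both 24-month libraries, 7.04% against 7.62% of all genes, and they were HSPB1, HSPB7, HSPB8, hspb9l and hsp90aa1.1. Against replicate 1 alone the count was 6, with a background of 13.8%, and against replicate 2 alone it was 15, with a background of 21.6%. Members below that level differed in order. HSPB2 had 2.69 CPM at 5 months, 1.26 and 0.103 CPM in the 24-month replicates and 4.51 CPM at 30 months. HSPB3, which pairs with it in muscle, had 3.41 CPM at 5 months, 0.912 and 2.07 CPM in the 24-month replicates and 1.99 CPM at 30 months. The gene hspb9 had 4.17 CPM at 5 months, 2.17 and 0.827 CPM in the 24-month replicates and 1.89 CPM at 30 months. The gene hspb11, whose mammalian counterpart is the ciliary transport protein IFT25, had 2.97 CPM at 5 months, 2.78 and 0.621 CPM in the 24-month replicates and 2.20 CPM at 30 months. The lens relative CRYAB (ENSDARG00000101380) had 2.78 CPM at 5 months, 1.48 and 0.931 CPM in the 24-month replicates and 3.15 CPM at 30 months.

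The muscle list had its lowest share in replicate 2 and its highest at 5 months. Of the 51 muscle genes tested, 41 were higher at 30 than at 24 months and 23 were higher at 30 than at 5 months. Of the 48 with at least 5 CPM, 16 were higher and 15 lower by 2-fold or more at 30 than at 5 months. Per 1000 reads of that list HSPB7 had 0.113 reads at 5 months, 0.137 and 0.0731 reads in the 24-month replicates and 0.934 reads at 30 months. HSPB1 had 0.735 reads at 5 months, 1.02 and 1.17 reads in the 24-month replicates and 2.66 reads at 30 months, and hspb6 had 0.806 reads at 5 months, 2.48 and 1.53 reads in the 24-month replicates and 2.96 reads at 30 months. HSPB8 had 0.603 reads at 5 months, 0.775 and 0.383 reads in the 24-month replicates and 1.16 reads at 30 months. For all 4 genes the 30-month library was the highest relative to muscle reads, with the smallest margin for hspb6 over replicate 1. The same held for the muscle genes hsp90aa1.1 and UNC45B. Per 1000 reads of the list UNC45B had 0.429 reads at 5 months, 0.448 and 0.224 reads in the 24-month replicates and 0.659 reads at 30 months. The part of muscle content in the small heat shock levels was not tested.

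**Figure D5:**
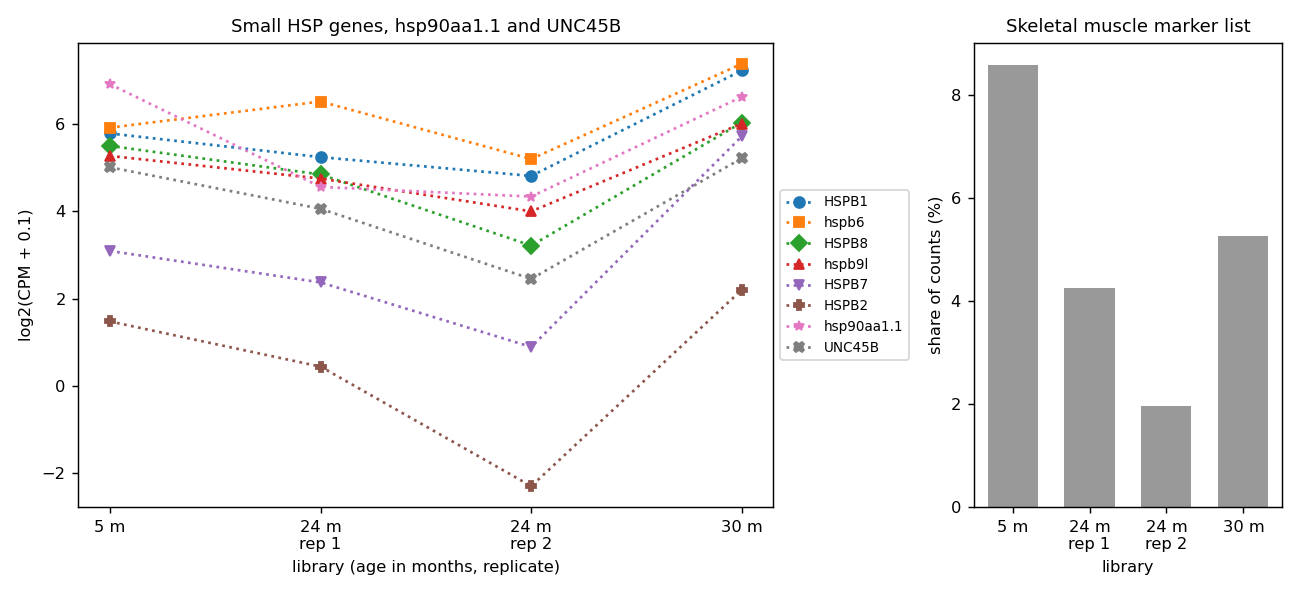
Levels of 6 small heat shock genes, hsp90aa1.1 and its partner UNC45B, as log2(CPM + 0.1), in the 4 libraries by age, with the share of counts (percent) of 52 skeletal muscle genes on the right. HSPB7 reached 52.7 CPM at 30 months against at most 8.44 CPM in the 3 other libraries, and the muscle list was highest at 5 months, at 8.59%.

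The CCT chaperonin had the smallest median range of any class, 0.94 in log2 over the 4 libraries beside 1.37 for all genes with at least 5 CPM. It took 0.176% at 5 months, 0.233% and 0.233% in the 24-month replicates and 0.172% at 30 months. All 8 genes were higher at 24 than at 5 months, with a median of 0.71 and 0 calls (7 of 8 on library totals alone), and 7 of 8 were lower at 30 than at 24 months. Against 5 months the median was 0.49 in replicate 1 and 0.94 in replicate 2. Between 30 and 5 months the direction depended on the scaling, with 7 of 8 higher under TMM and 3 of 8 on library totals alone. Keratinocyte genes, which were at their highest shares in the same 24-month libraries, had 25 of 35 genes higher at 24 than at 5 months, and the part of these and of macrophage genes in the CCT levels was not tested.

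CCT6B had 281 CPM at 5 months, 475 and 619.5 CPM in the 24-month replicates and 446 CPM at 30 months (24 against 5 months, log2 difference 0.96, SE 1.07, edgeR adjusted p = 1). CCT4 had 256 CPM at 5 months, 283 and 599 CPM in the 24-month replicates and 259.7 CPM at 30 months, high in replicate 2 alone (24 against 5 months, log2 difference 0.78, SE 1.02, edgeR adjusted p = 1). CCT7 was the steadiest subunit, with 249 CPM at 5 months, 285 and 274 CPM in the 24-month replicates and 229 CPM at 30 months. The widest ranges belonged to the 2 CCT2 genes, at 139.9 CPM at 5 months, 203 and 354 CPM in the 24-month replicates and 169.8 CPM at 30 months for CCT2 (ENSDARG00000104674) (24 against 5 months, log2 difference 0.99, SE 0.96, edgeR adjusted p = 1) and 12.9 CPM at 5 months, 24.0 and 43.5 CPM in the 24-month replicates and 16.2 CPM at 30 months for cct2 (ENSDARG00000087206) (24 against 5 months, log2 difference 1.39, SE 1.08, edgeR adjusted p = 1). Their gene models are short, 994 and 307 bases beside 1906 to 2396 bases for the other 6, so reads of 1 transcript may have been divided between them. TCP1, which is subunit 1 of the same ring but falls outside the naming rule, had 190.4 CPM at 5 months, 206 and 418 CPM in the 24-month replicates and 180.4 CPM at 30 months.

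Helpers of the ring gave 0 calls among 15 genes. Prefoldin hands nascent actin and tubulin to CCT, and its subunits were uneven in replicate 2. PFDN2 had 24.996 CPM at 5 months, 39.9 and 44.2 CPM in the 24-month replicates and 24.98 CPM at 30 months. PFDN5 had 19.9 CPM at 5 months, 43.9 and 5.90 CPM in the 24-month replicates and 40.8 CPM at 30 months (30 against 5 months, log2 difference 1.04, SE 1.14, edgeR adjusted p = 1). PFDN1 had 20.3 CPM at 5 months, 20.41 and 2.38 CPM in the 24-month replicates and 19.7 CPM at 30 months (24 against 5 months, log2 difference −0.83, SE 1.102, edgeR adjusted p = 1). The prefoldin-like pdrg1 had 9.69 CPM at 5 months, 9.12 and 0.621 CPM in the 24-month replicates and 10.97 CPM at 30 months (30 against 24 months, log2 difference 1.16, SE 1.35, edgeR adjusted p = 1). PFDN1, PFDN5 and pdrg1 were lowest in replicate 2, and PFDN2 was highest there.

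In the mitochondrion, HSPD1, the chaperonin HSP60, had 98.1 CPM at 5 months, 93.9 and 113 CPM in the 24-month replicates and 52.4 CPM at 30 months and was lowest at 30 months (30 against 24 months, log2 difference −0.98, SE 0.90, edgeR adjusted p = 1). Its lid HSPE1, or HSP10, had 25.2 CPM at 5 months, 31.4 and 18.7 CPM in the 24-month replicates and 34.0 CPM at 30 months and was highest there (30 against 24 months, log2 difference 0.44, SE 0.96, edgeR adjusted p = 1). The pair thus had different orders, although their proteins act as 1 complex. LONP1, the matrix protease that clears misfolded proteins, had 35.1 CPM at 5 months, 39.6 and 61.8 CPM in the 24-month replicates and 13.3 CPM at 30 months (30 against 24 months, log2 difference −1.93, SE 1.01, edgeR adjusted p = 1). The inner membrane protease YME1L1 (ENSDARG00000104401) had 25.1 CPM at 5 months, 51.3 and 70.6 CPM in the 24-month replicates and 31.8 CPM at 30 months (24 against 5 months, log2 difference 1.28, SE 0.94, edgeR adjusted p = 1). The disaggregase clpb (ENSDARG00000090232) had 10.6 CPM at 5 months, 10.3 and 3.21 CPM in the 24-month replicates and 10.2 CPM at 30 months (24 against 5 months, log2 difference −0.64, SE 1.32, edgeR adjusted p = 1). None of the 13 genes tested on the list of mitochondrial folding factors passed in any comparison.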

How the data were processed

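RNA from male zebrafish skin was sequenced on an Illumina platform and counted per gene. The authors deposited raw read counts for 32105 genes in 4 libraries, and the submitters' processing notes name STAR 2.4.1d, CASAVA 1.7, the build GRCz10 and featureCounts 1.4.6-p4, with no roles. Whether counting used strand is not given in the sources used here, so antisense and overlapping genes cannot be separated. The deposited RPKM values, treated as a score, were checked against the counts: their library totals changed over rows with a period of 24, so they were used for gene lengths and 1 closing comparison, not for levels (25486 genes, 99.81% of them with 1 length).

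CPM and RPKM values in the text were computed from the counts with TMM scaling in edgeR 4.0.16 (R 4.3.3). Genes were filtered with filterByExpr, which left 21535, and tested with edgeR's quasi-likelihood test in a model of group means and in a slope over age, with Benjamini-Hochberg adjustment over all genes tested and a threshold of 0.05. The group model has 1 residual degree of freedom. Its estimated prior degrees of freedom were infinite, so edgeR used a spread shared over genes in place of each gene's own. Single-library log2 differences use a prior count of 2. A level of 3 counts corresponds to 0.130 to 0.310 CPM, and 95% counting intervals cover counting error only. Lists with several genes are described by counts and medians.

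Full statistics are given for called genes, for the gene with the largest mean CPM of each class, and for up to 3 genes of each class or partner list with a mean of at least 5 CPM and the largest range. 1 gene that this rule names is not reported here. Other genes were named after their values were seen. Members and lists were chosen with earlier results of these data known. Alternatives were other scalings (library totals, DESeq2 1.42.0 size factors), no filter, a floor of 5 CPM, non-legacy dispersion, limma-voom (3.58.1), DESeq2, and leaving out each library. The edgeR script was tested on data simulated with a dispersion far below the common dispersion of 0.586 found here. That check covers the code and not the power or the false calls in these libraries. Sequences and coordinates were not used here.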

Additional observations from a re-analysis of the deposited data

How the results depend on the processing

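In the main setting the median log2 difference of the chaperone genes was 0.098 for 24 against 5 months and −0.29 for 30 against 24 months. It was −0.17 for 30 against 5 months and 0.015 for the slope. On library totals alone the median was −0.13 for 24 against 5 months, −0.47 for 30 against 5 months and −0.094 for the slope. All genes shifted to −0.263, −0.331 and −0.099. The medians of the chaperone genes for 24 against 5 months and for the slope thus changed sign with the scaling. The median between 30 and 5 months was 0.0066 over genes with at least 5 CPM, and the slope was −0.088 in limma-voom. Between 30 and 24 months 0 chaperone genes were called on library totals alone, without the filter, with at least 5 CPM, without the legacy dispersion, in limma-voom and in DESeq2. Between 30 and 5 months 0 were called under the same settings except the missing filter. DNAJB13 had an adjusted p of 0.0529 without the filter between 30 and 24 months. The cause was not tested.

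Leaving out each library in turn gave medians of −0.021 to 0.13 between 24 and 5 months, −0.24 to −0.10 between 30 and 24 months and −0.49 to 0.078 for the slope, and 0 to 1 slope calls (HSPB7 without 5 months, adjusted p = 0.0263; DNAJB13 without 24 months replicate 1, adjusted p = 0.000827). The HSPB7 slope without 5 months rests on 24 and 30 months alone and so repeats their difference. The DNAJB13 slope leaves out the library in which that gene was highest and rests on 1 library per age. Genes at least 2-fold higher at 30 months than the 24-month libraries kept numbered 6 to 15, and those lower 11 to 17. Between 30 and 24 months the difference without 1 replicate ran from −6.85 to 0.97 for DNAJB13 and from −6.22 to 1.69 for hsf5, turning sign without replicate 1, and from −0.38 to 2.19 for DNAJC5 (ENSDARG00000004836), turning without replicate 2. Between 24 and 5 months PFDN1 ran from −3.04 to 0.0049, turning without replicate 2. Fits of group means without a 24-month replicate leave no residual degrees of freedom and give no test. The medians between ages without a replicate are therefore those of single-library log2 differences. The main median of −0.29 between 30 and 24 months lies outside their span. With a floor of 1 CPM, 89 genes entered the 2-fold counts, which were 23 for 30 against 5 months, 26 for 30 months against 24 months replicate 1, 11 for 24 months replicate 1 against 5 months and 34 between the 24-month replicates. Of 468 alternatives of single named genes 437 kept direction and side of the threshold. Most of the 52 results behind them had not passed in the main setting, so staying on that side was a weak check. In 21 alternatives a call was lost. In 6 a called difference kept its direction without 1 replicate but has no test, and in 4 the direction turned. Single-library differences between 30 and 5 months use no 24-month library, so leaving out a replicate could not turn them. Among the 6 this holds for those of DNAJB13 and hsf5 between 30 and 5 months. No paired analysis was possible because the labels give no replicate numbers that the ages share. Depth limits low genes most in replicate 2, where 3 counts are 0.310 CPM. Class directions under the scalings and the values against replicate 1 alone were added after the data were seen.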

Other observations

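The RPKM values that were deposited beside the counts change which chaperone genes lie 2-fold apart. Computed from the counts with each library's own total, 19 of 70 chaperone genes with values lay at least 2-fold apart between 30 and 5 months, against 21 in the deposited values, and 11 did in both. The deposited differences shifted by −1.44 to 1.09 in log2 and 7 genes had the opposite sign. Between 24 months replicate 1 and 5 months, 5 of 71 lay 2-fold apart from the counts and 16 in the deposited values, 4 in both, with shifts of −1.05 to 1.51 and 11 opposite signs. The totals by which rows had been divided were 0.391 to 2.05 of what the library itself summed to.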
